A study of Mus musculus with 6 samples.

Results

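Splicing factors and heterogeneous nuclear ribonucleoproteins (hnRNPs) were followed in primary mouse liver sinusoidal endothelial cells under cyclic hydrostatic pressure. The members are the 112 of 24421 listed gene symbols that begin with Srsf, Hnrnp, Sf3a, Sf3b, Snrp, Prpf, Rbm (the Srsf, Prpf and Rbm names followed by a digit) or U2af, or are Clk1 to Clk4. The control group held 3 libraries labelled as controls and the pressure group 3 libraries of cells exposed for 8 h to absolute pressure that cycled from 101 to 135 kPa at 0.01 Hz. All 6 carry the genotype label wild, came from liver, were selected by CD146 beads and share 1 batch value. The protocol places them overnight on collagen I, then 6 h without serum, at 37 °C in 5% CO2. No strain, age or sex label was used here. The labels name neither handling for the controls over the pressure period nor separate animals or cultures, so time in culture and pressure cannot be told apart, and the p-values rest on the spread among these libraries alone, which may be technical.

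Splicing removes introns from pre-mRNA in the spliceosome, which is built from small nuclear ribonucleoproteins (snRNPs) and many added proteins. U2AF and the SF3A and SF3B complexes mark the end of the intron and its branch point, Sm proteins (the Snrp family) form the core ring of the snRNPs, and PRPF proteins build and run the assembled machine. SR proteins mostly promote the use of nearby exons, hnRNPs often oppose them, and CLK kinases phosphorylate the SR proteins in the nucleus. Many of these genes adjust their own output by splicing in an exon that sends the transcript to nonsense-mediated decay. The values here are read counts summed over a whole gene, so productive and decay-prone transcripts of 1 gene cannot be told apart.

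Library totals lay between 12922959 and 18655749 counts, the lowest being pressure library 3. Of the 5 endothelial and 6 sinusoidal markers, all had enough counts to be tested, and their summed levels were 4101 to 4400 and 3610 to 3675 CPM (counts relative to the library total, scaled with TMM factors) in controls, against 4001 to 4511 and 2092 to 2341 CPM under pressure (2 of 5 and 5 of 6 lower, none higher). No marker of any list was at 0 in all libraries. The 7 Kupffer cell and macrophage markers had the highest summed level of any list in both groups. It was 4807 to 5229 CPM in controls and 4577 to 4962 CPM under pressure (2 higher, 2 lower). Summed levels stayed below those of the other lists, at most 17.03 CPM, for 6 hepatocyte, 3 T and NK cell, 3 B cell and 3 biliary markers, and 6 stellate cell markers reached 142 to 155 CPM in controls and 159 to 176 CPM under pressure (1 higher, 1 lower). Both tested hepatocyte markers (Alb at 0.90 ± 0.17 and Apoa1 at 1.19 ± 0.37 on the log2 scale) and both tested biliary markers (Epcam at 1.55 ± 0.29 and Sox9 at 1.25 ± 0.36) were called higher. The part of other cells in the changes below was not tested, and in bulk RNA fewer cells of a type and less RNA per cell cannot be told apart. Pressure library 3 stood apart from the others (correlation of log CPM of 0.9868 and 0.9894, against 0.9941 between libraries 1 and 2).

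Most splicing factor transcripts that changed were higher under pressure. Of 105 members with enough counts for the test, 61 rose and 18 fell at an adjusted p under 0.05 (edgeR's quasi-likelihood test, adjusted over all genes). Over all 12892 genes tested, 68.8% were called, 33.7% higher and 35.1% lower, whereas 58.1% of the members were higher and 17.1% lower. The median log2 fold change was 0.37 over the members and -0.015 over all genes. In 82 members the 3 pressure values lay all above or all below the 3 control values (63 above and 19 below), beside 71.9% of all genes. At least 2-fold changes were fewer: 14 members rose and 2 fell by that much, beside 9.64% and 13.7% of all genes. With library totals in place of TMM factors, 45 members were higher and 29 lower, beside 24.3% and 45.7% of all genes. That scaling moved the median of all genes by -0.213 and gave the members a median of 0.15. Across TMM, RLE and upper-quartile factors and library totals, 45 members were higher and 16 lower under each, and none was called in opposite directions.

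**Figure D1:**
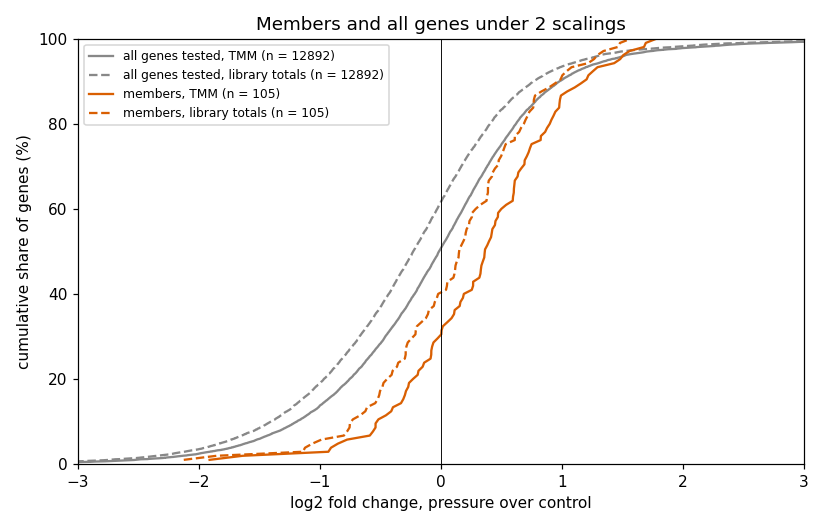
Cumulative share of genes (vertical axis, %) against the log2 fold change of pressure over control (horizontal axis) for 105 members and all 12892 tested genes, with TMM factors (solid) and library totals (dashed). The curve of the members lies to the right of that of all genes over most of its length in both scalings, and library totals move both curves to the left.

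The members' summed level was higher in every pressure library. It was 13401, 13481 and 13411 CPM in controls 1, 2 and 3 and 21668, 20245 and 19545 CPM in pressure libraries 1, 2 and 3. As a share of all deposited counts, which no scaling factor touches, the members held 1.438%, 1.447% and 1.451% in controls and 1.969%, 1.884% and 1.847% under pressure. SR proteins and U2AF had the steepest sums, with SR proteins at 1499 to 1569 CPM in controls and 2901 to 3349 CPM under pressure and U2AF at 375 to 396 and 754 to 855 CPM. The sum of the Snrp genes was nearer between groups, at 666 to 729.9 and 796 to 923 CPM, and as a share of counts its ranges overlapped (0.07149% to 0.07833% in controls and 0.0741% to 0.08725% under pressure). The shares of PRPF (0.1113% to 0.1184% and 0.1179% to 0.1342%) and CLK kinases (0.02141% to 0.02313% and 0.0228% to 0.0241%) overlapped as well.

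**Figure D2:**
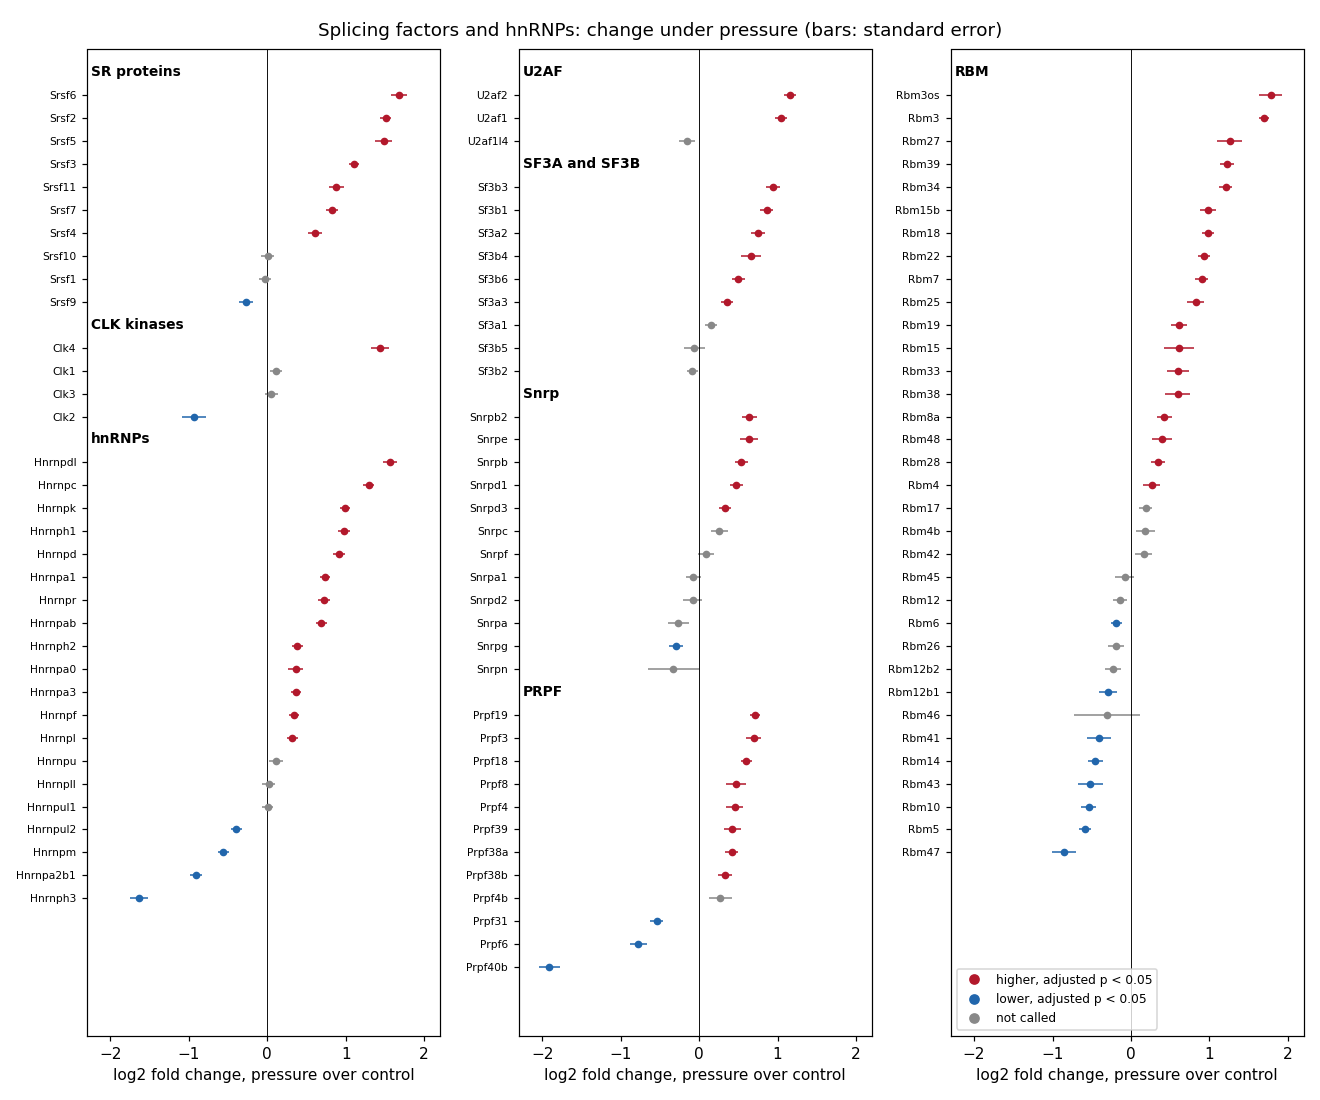
Log2 fold change of pressure over control (horizontal axis) for 104 of the 105 tested members, by family, with bars of 1 standard error. Values run from -1.91 (Prpf40b) to 1.78 (Rbm3os), and rises outnumber falls in every family but the CLK kinases, which have 1 of each. With library totals rises still outnumber falls in every other family, by 13 to 11 in RBM, 8 to 6 in hnRNPs, 4 to 3 in Snrp and 5 to 3 in PRPF. Over all genes 24.3% were then higher and 45.7% lower.

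SR proteins carried some of the steepest rises of the members. Of 10 tested, 7 rose (70%) and 1 fell (10%), beside 33.7% of all genes higher and 35.1% lower. The family median was 0.85 on the log2 scale, and the same 7 were higher under all 4 scalings. Srsf6, also named SRp55, stood at 165, 165 and 165 CPM in controls and 608, 531 and 445 CPM under pressure (log2 fold change with its standard error, 1.68 ± 0.10; adjusted p = 4.46e-07). The 3 controls were almost identical, and the lowest pressure library, number 3, was still more than double any of them. In GRCm38 (GENCODE M21) Srsf6 is a protein-coding gene on the plus strand of chromosome 2 from 162931528 to 162937121.

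Srsf2 (SC35), whose protein accumulates in nuclear speckles, had 198, 202 and 201 CPM in controls and 598, 559.8 and 552 CPM under pressure (1.51 ± 0.067; adjusted p = 7.35e-08). Srsf5 ran from 175, 172 and 177 CPM to 574, 476 and 414 CPM (1.48 ± 0.11; adjusted p = 1.10e-06). Both pressure groups lay wholly above the controls, and in both genes pressure library 3 was the lowest of the pressure group. Srsf2 shares 748 annotated exonic bases with Mettl23 and Mfsd11 on the opposite strand, and since the strand setting of the counting is not given in the sources used here, their reads cannot be told apart there.

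Srsf3 and Srsf7, short SR proteins that also help to export mRNA, changed less. Srsf3 was 273, 300.1 and 287 CPM in controls and 612, 613 and 627 CPM under pressure (1.11 ± 0.066; adjusted p = 3.48e-07). Srsf7 was 124, 139 and 139 CPM and then 238, 241 and 234 CPM (0.83 ± 0.075; adjusted p = 4.64e-06). Pressure library 3 was not set apart for either. Srsf11 and Srsf4 made up the other rises, at 0.88 ± 0.098 and 0.60 ± 0.091.

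Srsf1, the founding SR protein, did not pass. Its level was 228, 234 and 247 CPM in controls and 247, 236 and 211 CPM under pressure (-0.03 ± 0.079; adjusted p = 0.773), and the groups overlapped. With library totals it was called lower (-0.24; adjusted p = 0.0141), a setting that lowers the median of all genes by a similar amount. Srsf10 also overlapped between groups (0.00 ± 0.081; adjusted p = 0.969) and was called lower with library totals (-0.21; adjusted p = 0.0407). Srsf9, a close relative of Srsf1, fell from 59.0, 62.1 and 60.4 CPM to 51.0, 45.8 and 53.9 CPM (-0.27 ± 0.085; adjusted p = 0.0159), a small change whose call was lost without control 2 (adjusted p = 0.0604) or pressure library 2 (adjusted p = 0.0778). Srsf12 had 1 read in all 6 libraries and was not tested.

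Of the 4 CLK kinases 1 rose, 1 fell and 2 were not called, and the 50% called lay below the 68.8% of all genes. Clk4 stood at 27.2, 25.3 and 30.9 CPM in controls and 85.1, 72.9 and 66.8 CPM under pressure (1.43 ± 0.11; adjusted p = 1.80e-06), so that every pressure library was more than double every control. Clk2 went the other way, from 24.7, 24.1 and 25.0 CPM to 10.8, 11.5 and 16.9 CPM (-0.93 ± 0.15; adjusted p = 2.81e-04), and pressure library 3 was the nearest to the controls. Clk1, the closest relative of Clk4, was 65.7, 68.0 and 72.3 CPM in controls and 73.4, 74.0 and 75.5 CPM under pressure (0.11 ± 0.075; adjusted p = 0.196). Its pressure values all lay above its controls but by a margin too small to be called, and the sign of its change turned with library totals (-0.099). Clk3 had 82.0, 88.7 and 85.5 CPM and 95.9, 86.5 and 83.3 CPM, overlapping between groups (0.05 ± 0.082; adjusted p = 0.573), and its sign turned with upper-quartile factors (-0.061) and library totals (-0.16). The ratio of Clk4 to Clk2 counts within a library, which no scaling touches, was 1.10, 1.05 and 1.23 in controls and 7.89, 6.35 and 3.96 under pressure. This pair was chosen after its values were seen.

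Clk4 and Clk2 also held different motifs upstream of their start sites in the RefSeq promoter table (GRCm38.p6, 250 bases before to 50 after the start), which listed 89 of the 105 tested members. Searched on both strands, the cAMP response element TGACGTCA was in 3 of the 89 (3.37%), beside 3.55% of the 9699 tested genes with an entry and 2.03% of all 27025 entries. Those 3 were Clk4 (higher), Snrpg (lower) and Snrpa (not called). The E-box CACGTG was in 15 of 89 (16.9%), beside 11.8% of tested genes and 8.09% of all entries. Of these 15 members 9 were higher, 4 lower and 2 not called. Among all 105 tested members 58.1% were higher and 17.1% lower, and among all genes tested 33.7% and 35.1%. Whether the motif bears on the direction was not tested. The stretches below show Clk4 and Clk2, which moved apart, and a fall (Prpf40b) and 2 rises (Hnrnpf, Rbm15b) that carry the same E-box letters. They run 5′ to 3′ on the strand of the gene with the motif in capitals, and a match is a description, not a site in use. They lie at chr11:51263019-51263086 (Clk4, plus strand), chr3:89164606-89164671 (Clk2, plus), chr15:99295020-99295085 (Prpf40b, plus), chr6:117907695-117907760 (Hnrnpf, plus) and chr9:106887194-106887259 (Rbm15b, minus).
Clk4: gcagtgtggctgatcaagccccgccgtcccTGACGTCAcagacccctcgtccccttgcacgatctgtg
Clk2: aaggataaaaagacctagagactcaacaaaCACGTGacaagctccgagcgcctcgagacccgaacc
Prpf40b: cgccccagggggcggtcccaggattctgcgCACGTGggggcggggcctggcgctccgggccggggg
Hnrnpf: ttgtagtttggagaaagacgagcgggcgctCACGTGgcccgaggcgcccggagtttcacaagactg
Rbm15b: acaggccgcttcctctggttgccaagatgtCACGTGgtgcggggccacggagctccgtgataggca
The same 6 letters thus stood upstream of genes that rose and of genes that fell.

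**Figure D3:**
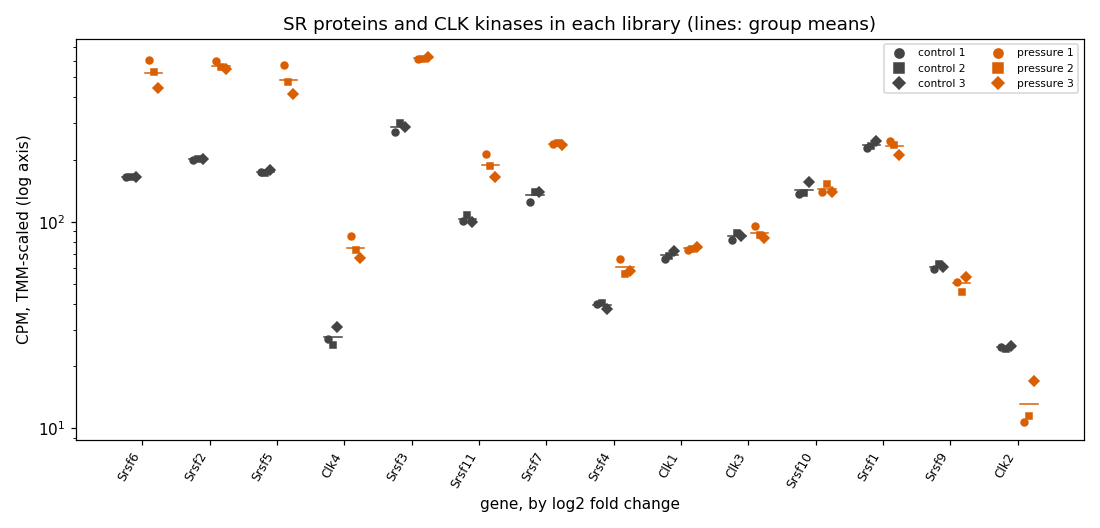
CPM in each library (vertical axis, log scale) for the 10 tested SR proteins and the 4 CLK kinases, ordered by log2 fold change; grey points are controls, orange points pressure libraries and lines group means. Srsf6, Srsf2, Srsf5 and Clk4 show clear gaps between groups, Srsf1 and Srsf10 overlap, and Clk2 is lower in all 3 pressure libraries.

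The hnRNPs rose in 13 and fell in 4 of 20 genes, all 20 having enough counts. Over all genes 33.7% were higher and 35.1% lower, as above. With library totals the family had 8 higher and 6 lower, beside 24.3% and 45.7% of all genes. The 8 higher under every scaling had log2 changes of at least 0.69, and Hnrnph2, Hnrnpa0, Hnrnpa3, Hnrnpf and Hnrnpl were not called with library totals. The largest rise was that of Hnrnpdl, a relative of the AU-rich element binding protein AUF1, from 135, 141 and 143 CPM to 462, 403 and 373 CPM (1.56 ± 0.088; adjusted p = 2.62e-07). Hnrnpc, which coats uridine tracts and competes there with U2AF, went from 260.3, 267 and 264 CPM to 694, 634 and 616 CPM (1.30 ± 0.07; adjusted p = 1.99e-07). In both genes the pressure libraries lay far above the controls.

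Hnrnpk, a poly-cytidine binding protein with several KH domains, was the hnRNP with the most counts under pressure. It stood at 706, 708 and 738 CPM in controls and 1502, 1451 and 1332 CPM under pressure (0.99 ± 0.067; adjusted p = 6.87e-07). Hnrnph1, which binds guanosine runs, was 216, 212 and 229 CPM and then 462, 417 and 413 CPM (0.98 ± 0.074; adjusted p = 1.43e-06). Hnrnpa1, a classic antagonist of SR proteins at exonic silencers, was 199, 203 and 203 CPM and then 339, 331 and 338 CPM (0.74 ± 0.064; adjusted p = 3.70e-06). For all 3 the groups were well separated, and Hnrnpa1 varied little within a group. Its counts were fractional in 5 of 6 libraries, as can happen where reads of near-identical copies are split. Fractional counts were common, in at least 1 library for 56 of the 105 tested members, and Rbm3, Rbm3os and Clk2 also had them in 5 libraries. The other rises, Hnrnpd, Hnrnpr, Hnrnpab, Hnrnph2, Hnrnpa0, Hnrnpa3, Hnrnpf and Hnrnpl, ran from 0.32 ± 0.073 (Hnrnpl) to 0.91 ± 0.074 (Hnrnpd).

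The 4 falls among hnRNPs were called under all 4 scalings. Hnrnph3, a smaller relative of Hnrnph1, was 22.4, 22.8 and 24.3 CPM in controls and 8.41, 6.93 and 6.88 CPM under pressure (-1.64 ± 0.12; adjusted p = 9.51e-07), a 3.11-fold lower level. It lies on the minus strand of chromosome 10 from 63014664 to 63024217 and shares 115 exonic bases with Rufy2 on the other strand. Hnrnpa2b1, the close relative of Hnrnpa1, was 435, 433 and 439.8 CPM and then 253, 223 and 220.2 CPM (-0.91 ± 0.074; adjusted p = 2.39e-06). No pressure library of either gene came near a control. Hnrnpm, which binds guanosine- and uridine-rich sites, went from 349.7, 363 and 337 CPM to 251, 225 and 236 CPM (-0.56 ± 0.072; adjusted p = 5.29e-05), and shares 1169 exonic bases with March2 on the same strand. Hnrnpul2 went from 264, 250.4 and 253 CPM to 208, 186 and 189.6 CPM (-0.40 ± 0.073; adjusted p = 6.72e-04). Its relative Hnrnpul1 gave 0.01 ± 0.07 and was not called, nor was Hnrnpll (0.02 ± 0.079). With library totals both were called lower (Hnrnpul1 -0.21, adjusted p = 0.021, and Hnrnpll -0.20, adjusted p = 0.037).

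Hnrnpu, a nuclear matrix protein also named scaffold attachment factor A, had 751, 734 and 713 CPM in controls and 908, 773 and 689.5 CPM under pressure (0.11 ± 0.093; adjusted p = 0.314). The groups overlapped through pressure library 3 alone, and without it Hnrnpu was called higher (0.20; adjusted p = 0.00871). With upper-quartile factors and library totals its change was -0.00565 and -0.11.

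**Figure D4:**
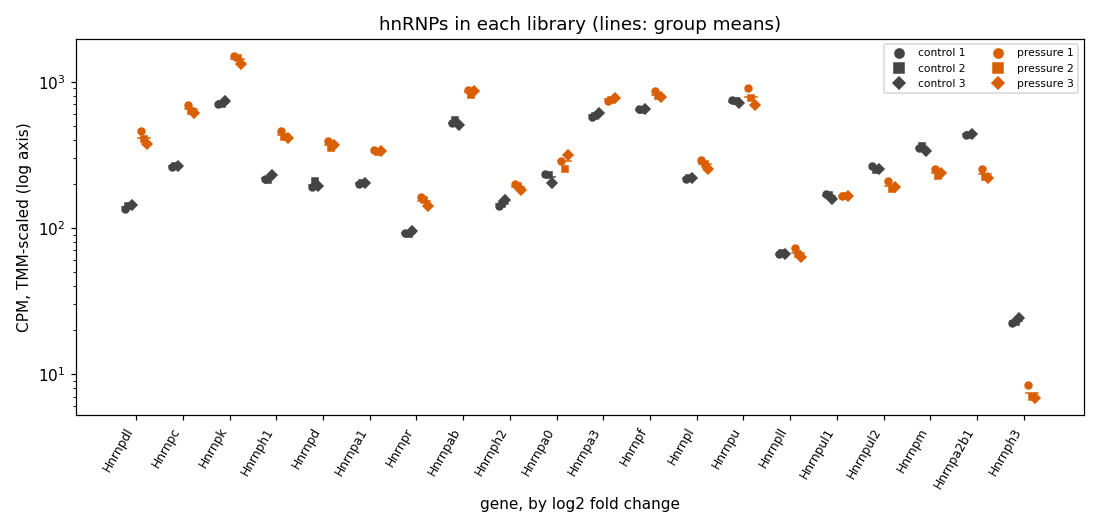
CPM in each library (vertical axis, log scale) for the 20 hnRNP genes, ordered by log2 fold change; grey points are controls, orange points pressure libraries and lines group means. Hnrnpdl and Hnrnpc are the steepest rises, and Hnrnph3 and Hnrnpa2b1 the steepest falls.

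Related genes moved in opposite directions in some pairs, which were chosen after their values were seen and are given as a description with no test. Hnrnph1 had 9.63, 9.28 and 9.42 counts for each count of Hnrnph3 in controls, and 54.98, 60.2 and 60.1 under pressure. Counts of Hnrnpa1 over Hnrnpa2b1 were 0.457, 0.4696 and 0.461 in controls and 1.34, 1.48 and 1.53 under pressure, so the order of the pair in counts turned over. The ranges of these ratios did not meet between groups. Per kilobase of annotated exon, Hnrnpa1 and Hnrnpa2b1 were close in controls (63.9 and 66.2 CPM per kb) and apart under pressure (106.6 and 35.3 CPM per kb). Each ratio is taken within a library and does not depend on the scaling, although it also contains the difference in transcript length of the pair.

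**Figure D5:**
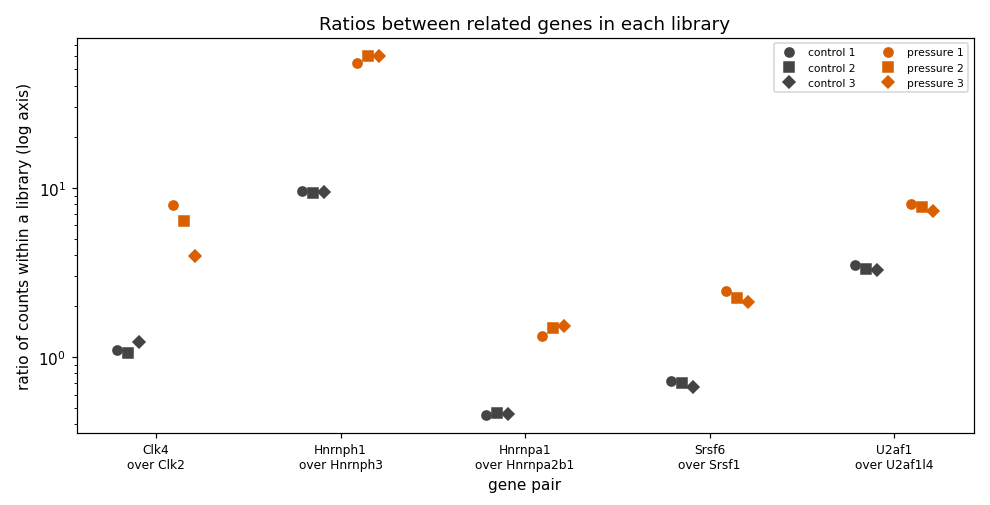
Ratio of the counts of paired genes within each library (vertical axis, log scale) for 5 pairs; grey points are controls and orange points pressure libraries. The pairs were chosen after their values were seen, each with a gene that rose on top. In each pair all pressure ratios lie above all control ratios, with mean Hnrnph1 over Hnrnph3 ratios of 9.44 in controls and 58.4 under pressure.

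Both subunits of U2AF, which bind the polypyrimidine tract and the AG at the intron's end, rose. U2af2, the large subunit, stood at 272, 284 and 272 CPM in controls and 664, 573 and 614 CPM under pressure (1.16 ± 0.074; adjusted p = 4.90e-07). U2af1, the small subunit, stood at 83.8, 85.4 and 78.6 CPM and 170.4, 161 and 180.5 CPM (1.04 ± 0.078; adjusted p = 1.34e-06). Neither pressure group came near its controls, and pressure library 3 was in the middle or highest. U2af1l4, a relative of U2af1, had 24.1, 25.7 and 24.2 CPM and 21.2, 20.8 and 24.9 CPM (-0.15 ± 0.10; adjusted p = 0.21). Its groups overlapped through pressure library 3, and it was called lower without that library (-0.23; adjusted p = 0.0357) and with library totals (-0.36; adjusted p = 0.0114). Of its 1656 exonic bases, 1086 are shared with Gm49396 on the same strand and 119 with Psenen on the opposite strand, so its counts are uncertain. U2af1 over U2af1l4 counts were 3.48, 3.32 and 3.25 in controls and 8.04, 7.73 and 7.25 under pressure. That ratio carries the same uncertainty, and the pair was chosen after its values were seen.

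Of the 9 SF3A and SF3B subunits, which hold the U2 snRNP at the branch point, 6 rose and none fell by edgeR's test at adjusted p under 0.05. Over all genes 33.7% were higher and 35.1% lower, and the 66.7% called in this family was near the 68.8% of all genes. With library totals 5 were higher and 1, Sf3b2, lower (-0.30; adjusted p = 0.00473), beside 24.3% and 45.7% of all genes. Sf3b1, the subunit that clamps the branch point helix, was 325, 313 and 318 CPM in controls and 619, 602 and 515 CPM under pressure (0.86 ± 0.08; adjusted p = 5.42e-06). Its partner Sf3b3 was 217, 198 and 194 CPM and then 419, 411 and 346 CPM (0.95 ± 0.089; adjusted p = 5.92e-06). Both separated cleanly, with library 3 the lowest of the pressure group. Sf3a2 went from 69.2, 69.1 and 61.0 CPM to 119, 109 and 108 CPM (0.75 ± 0.084; adjusted p = 2.01e-05). Sf3b4 went from 114, 103 and 108 CPM to 201, 177 and 136 CPM (0.66 ± 0.13; adjusted p = 7.56e-04). Sf3b6 and Sf3a3 rose by 0.50 ± 0.084 and 0.36 ± 0.075. Sf3a1, Sf3b5 and Sf3b2 gave 0.16 ± 0.078, -0.06 ± 0.13 and -0.08 ± 0.075 and were not called.

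The Snrp genes, mostly Sm ring proteins, had the lowest median change (0.17 on the log2 scale) among families of more than 4 tested genes. Of 12 tested, 5 rose (41.7%), 1 fell (8.33%) and 6 were not called, and no change reached 2-fold. Over all genes 33.7% were higher and 35.1% lower, and the 50% called in this family lay below the 68.8% of all genes. Snrpb, which encodes SmB, was the most abundant, at 158, 174 and 158 CPM in controls and 252, 219 and 242 CPM under pressure (0.54 ± 0.081; adjusted p = 1.56e-04). Snrpb2, a U2 snRNP protein, had 53.7, 61.4 and 55.0 CPM and 80.6, 89.2 and 95.6 CPM (0.64 ± 0.091; adjusted p = 1.12e-04). Snrpe, an Sm protein, had 38.7, 47.1 and 48.4 CPM and 63.2, 67.5 and 77.7 CPM (0.63 ± 0.11; adjusted p = 4.42e-04). These 3 did not overlap between groups, and in Snrpb2 and Snrpe pressure library 3 was the highest.

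Snrpd1 and Snrpd3 encode a further pair of Sm proteins. Snrpd1 was 51.7, 60.3 and 55.1 CPM in controls and 78.6, 73.7 and 79.5 CPM under pressure (0.47 ± 0.084; adjusted p = 5.35e-04). Snrpd3 was 93.4, 99.3 and 95.1 CPM and 122, 112 and 128 CPM (0.33 ± 0.078; adjusted p = 0.00316). The groups stayed apart for both, and the call of Snrpd3 was lost with library totals (0.12; adjusted p = 0.205). Snrpg, the Sm protein that fell, had 44.0, 46.9 and 44.5 CPM and 34.1, 35.4 and 40.9 CPM (-0.30 ± 0.093; adjusted p = 0.0152), and lost its call without control 2, pressure library 1 or pressure library 2 (adjusted p = 0.0637, 0.0535 and 0.0598). Snrpn, an imprinted gene known for its expression in neurons, was near the lower limit of detection at 0.949, 1.33 and 1.85 CPM and 0.81, 1.40 and 0.982 CPM, and the groups overlapped (-0.33 ± 0.33; adjusted p = 0.39). It shares exons with Snurf, so its few reads are uncertain. Of the rest, Snrpc, Snrpf, Snrpa1, Snrpd2 and Snrpa ran from -0.26 ± 0.14 (Snrpa) to 0.26 ± 0.11 (Snrpc), none of them called.

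Among the 13 PRPF genes, which build and run the tri-snRNP and the active spliceosome, 9 rose (69.2%) and 3 fell (23.1%). Over all genes 33.7% were higher and 35.1% lower. With library totals 5 were higher and 3 lower, beside 24.3% and 45.7% of all genes. Prpf19, the ubiquitin ligase at the heart of the complex named after it, was 126, 128 and 124 CPM in controls and 204, 204 and 209.7 CPM under pressure (0.71 ± 0.068; adjusted p = 6.46e-06). Prpf3, a U4/U6 protein, was 53.5, 57.1 and 56.2 CPM and 99.2, 89.2 and 81.1 CPM (0.69 ± 0.09; adjusted p = 5.66e-05). Prpf18, which acts at the later catalytic step, was 80.9, 76.9 and 82.6 CPM and 124, 124 and 117 CPM (0.60 ± 0.073; adjusted p = 3.69e-05). Prpf19 and Prpf18 were tight within groups, while Prpf3 spread more under pressure.

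Prpf8, the large U5 scaffold at the catalytic centre, had 232, 198 and 233 CPM in controls and 355, 322 and 242 CPM under pressure (0.47 ± 0.13; adjusted p = 0.00735). Pressure library 3 was only just above the highest control, and the call was lost with library totals (adjusted p = 0.0805). The other rises, among them Prpf4, Prpf39, Prpf38a and Prpf38b, ran from 0.33 ± 0.088 (Prpf38b) to 0.45 ± 0.10 (Prpf4), and Prpf4b was not called (0.27 ± 0.15; adjusted p = 0.124).

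The falls held the steepest change of any member. Prpf40b, which is related to a yeast U1 snRNP protein, went from 24.4, 24.5 and 25.8 CPM to 6.67, 5.41 and 7.94 CPM (-1.91 ± 0.13; adjusted p = 8.88e-07), a 3.76-fold lower level. It lies on the plus strand of chromosome 15 from 99295087 to 99317018. Prpf6, which bridges U5 and U4/U6, went from 79.6, 82.3 and 73.1 CPM to 44.0, 40.3 and 53.5 CPM (-0.77 ± 0.11; adjusted p = 9.60e-05). Prpf31, a U4 snRNP protein, went from 66.2, 66.0 and 65.0 CPM to 42.1, 44.3 and 49.6 CPM (-0.54 ± 0.085; adjusted p = 2.25e-04). All 3 were lower in every pressure library and under all 4 scalings.

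The RBM genes share a name rather than 1 function, and the symbol rule also takes in the antisense noncoding genes Rbm3os (tested) and Rbm46os (not tested). Of 34 tested, 18 rose (52.9%), 8 fell (23.5%) and 8 were not called, beside 33.7% of all genes higher and 35.1% lower. With library totals 13 were higher and 11 lower, a nearly even balance, beside 24.3% and 45.7% of all genes. Rbm15, Rbm48 and Rbm28 were then among those no longer called (adjusted p = 0.0759, 0.229 and 0.184). Rbm3, a cold-inducible RNA-binding protein, stood at 288, 303 and 291 CPM in controls and 943, 962 and 950.2 CPM under pressure (1.69 ± 0.062; adjusted p = 3.73e-08). Each group was tight, and the pressure level was 3.24 times the control level. Rbm3os, a noncoding transcript annotated opposite Rbm3, was 5.10, 4.69 and 5.42 CPM and 14.6, 19.2 and 18.4 CPM (1.78 ± 0.14; adjusted p = 1.96e-06). On chromosome X, Rbm3 lies on the minus strand from 8138975 to 8145880 and Rbm3os on the plus strand from 8145429 to 8147964, with 94 exonic bases in common. Without the strand setting of the counting, reads from those bases cannot be assigned to either.

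Rbm39, a relative of U2AF2 also named CAPER alpha, had 220.1, 206 and 227 CPM in controls and 560.0, 518 and 445 CPM under pressure (1.22 ± 0.091; adjusted p = 1.26e-06). Rbm27 had 70.9, 65.8 and 75.7 CPM and 205, 178 and 124 CPM (1.26 ± 0.15; adjusted p = 4.00e-05). In both pressure library 3 was the lowest of its group. Rbm8a, the exon junction protein Y14, had 82.4, 89.8 and 89.1 CPM and 117, 104 and 129.8 CPM (0.43 ± 0.092; adjusted p = 0.0019), and it was no longer called with library totals (adjusted p = 0.0660). Rbm34 was the remaining rise past 2-fold (1.21 ± 0.089). The other 13 ran from 0.27 ± 0.11 (Rbm4) to 0.99 ± 0.10 (Rbm15b). Rbm15 was called although its lowest pressure value overlapped the controls, and the call of Rbm4, whose counts were fractional in all 6 libraries, was lost with library totals (adjusted p = 0.688) and without any 1 library (adjusted p of 0.0521 to 0.133). Rbm15 also lost its call without control 2, control 3 or pressure library 1 (adjusted p = 0.0549, 0.0541 and 0.0593), and Rbm48 without control 1 (adjusted p = 0.0784).

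Rbm5 and Rbm10, related splicing regulators with tumour suppressor roles, fell together. Rbm5 went from 105, 99.3 and 104 CPM to 71.2, 69.6 and 64.5 CPM (-0.59 ± 0.076; adjusted p = 5.81e-05). Rbm10 went from 58.9, 56.6 and 53.0 CPM to 43.2, 36.4 and 36.4 CPM (-0.54 ± 0.095; adjusted p = 4.84e-04). The 3 pressure libraries lay close together and below all controls. Rbm47, which also serves as a cofactor of mRNA editing, went from 23.2, 20.1 and 19.6 CPM to 8.97, 14.0 and 11.9 CPM (-0.85 ± 0.15; adjusted p = 5.86e-04). Rbm43 went from 12.7, 12.6 and 13.1 CPM to 6.67, 9.36 and 11.1 CPM (-0.52 ± 0.16; adjusted p = 0.0154), pressure library 3 being the nearest to the controls. Rbm14, Rbm41, Rbm12b1 and Rbm6 made up the other falls, from -0.45 ± 0.095 to -0.18 ± 0.072, and the last 2 lost their call with DESeq2 (adjusted p = 0.0928 and 0.0816). Both were also lost without control 2 or 3 or pressure library 2, Rbm6 without control 1 and Rbm12b1 without pressure library 1 (adjusted p of 0.0621 to 0.187), and Rbm41 without control 1, control 3 or pressure library 1 (0.0949, 0.0747 and 0.0988). Without control 3 the falls of the family numbered 5. Rbm11, Rbm20, Rbm24, Rbm31y, Rbm44 and Rbm46os had at most 13 reads over all libraries and were not tested.

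Per kilobase of annotated exon, which allows levels of different genes to be set side by side, 3 hnRNPs led the members in controls: Hnrnpf at 212 CPM per kb, Hnrnpab at 189 and Hnrnpk at 111. Under pressure the same 3 led, with Hnrnpab at 305, Hnrnpf at 267 and Hnrnpk at 221 CPM per kb. Rbm3 moved from rank 12 to rank 4 of 105 (62.6 to 203 CPM per kb) and Srsf6 from rank 27 to 11 (34.3 to 109.8 CPM per kb). Hnrnpa2b1 moved down from rank 9 to 36 (66.2 to 35.3 CPM per kb). Exonic length counts every annotated exon of a gene, so a level is understated where long exons are rarely used.

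The annotation lists decay-prone transcripts for many of these genes. A nonsense-mediated decay transcript was annotated for 49 of the 104 protein-coding tested members (47.1%) and for 28.9% of 11763 tested coding genes. It was annotated for 9 of 10 SR proteins, 4 of 4 CLK kinases, 3 of 3 U2AF genes and 10 of 20 hnRNPs, but for 1 of 9 SF3 subunits. A retained-intron transcript was annotated for 76 of 104 members (73.1%) and 59.6% of coding genes. Which of these transcripts contributed to the counts was not measured.

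Other genes of the splicing pathway, from a list of 130 of which 127 were tested, showed a like balance. Of these, 77 rose (60.6%) and 13 fell (10.2%), beside 33.7% and 35.1% of all genes, and the median was 0.40. The share called in either direction, 70.9%, was near the 68.8% of all genes. By group, 23 of 40 further snRNP proteins rose and 3 fell, 17 of 23 proteins of the Prpf19 and catalytic complexes rose and none fell, and 11 of 16 SR-like proteins and kinases rose and 1 fell. With library totals 60 of the list were higher and 25 lower, beside 24.3% and 45.7% of all genes. Ccnl1 (cyclin L1, a cyclin found in speckles) led the rises, from 54.1, 53.1 and 52.4 CPM to 200.4, 173 and 150.2 CPM (1.71 ± 0.10; adjusted p = 4.04e-07). The RNA-binding proteins Cirbp, Ptbp2 and Ewsr1 were also among the 5 largest, at 1.47 ± 0.24, 1.35 ± 0.13 and 1.27 ± 0.078. Cirbp is the cold-inducible relative of Rbm3, and it stood at 14.7, 15.6 and 13.5 CPM in controls and 26.6, 37.3 and 58.6 CPM under pressure. Tra2a and Tra2b, SR-like activators, rose by 0.96 ± 0.079 and 1.04 ± 0.073.

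Among genes of that list with a mean of at least 5 CPM, the largest falls were Upf3b (-0.69 ± 0.12), Gemin6 (-0.82 ± 0.16), Fubp1 (-0.99 ± 0.12), Tia1 (-1.05 ± 0.10) and Gemin4 (-1.18 ± 0.16). Gemin8, below that level, fell too (-1.04 ± 0.23; adjusted p = 0.00197). Gemin6 and Gemin4 belong to the SMN complex that loads Sm rings. In the wider list of snRNP assembly genes 5 of 11 rose (Wdr77, Smn1, Clns1a, Coil and Prmt5) and 3 fell, all of them Gemin genes (Gemin4, Gemin6 and Gemin8). Upf3b is a decay factor, and 7 of 14 exon junction and decay genes rose and 1 fell. Over all genes 33.7% were higher and 35.1% lower. Called genes made up 72.7% of the assembly list and 57.1% of the exon junction and decay list, beside 68.8% of all genes. Upf1, the central decay helicase, and its kinase Smg1 were not called (0.21 ± 0.088, adjusted p = 0.0549; 0.42 ± 0.20, adjusted p = 0.0807), but both were called higher without pressure library 3 (0.28, adjusted p = 0.00123; 0.64, adjusted p = 5.30e-07). Srpk1 and Srpk2, the cytoplasmic kinases of SR proteins, gave -0.07 ± 0.10 (adjusted p = 0.592) and -0.19 ± 0.072 (adjusted p = 0.0366). The call of Srpk2 was lost without any 1 control, pressure library 1 or pressure library 2 (adjusted p of 0.0532 to 0.133).

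Many of the rises were smallest in pressure library 3. It was the lowest of the pressure group in 38 of the 61 higher members and in 55 of all 105, beside 39.6% of all genes. Across the 105 members, the longer the annotated exons of a gene, the lower that library stood relative to the mean of libraries 1 and 2 (Spearman's rho = -0.53, a description over genes that share the same libraries), and over 12366 genes rho was -0.40. Without that library 64 members were higher and 21 lower. More genes were then called over all genes as well, above the 8871 called with every library. The gain in calls was thus not particular to the members. Hnrnpu, Sf3a1, Prpf4b and Rbm4b then joined the rises, Snrpd2, Snrpa and U2af1l4 joined the falls, and Rbm4 was lost. What sets it apart was not tested.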

How the data were processed

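RNA was measured in 6 libraries (3 control, 3 pressure). The authors deposited expected counts per gene symbol, with 18.22% to 21.67% of detected values fractional; TopHat2 2.2.1 and Cufflinks 2.2.1 and the mm10 build appear in the submitters' processing notes. For the counter, its annotation and its strand setting: not given in the sources used here. Counts were rounded and tested with edgeR 4.0.16 in R 4.3.3: filterByExpr by group, TMM factors, quasi-likelihood F-test (two-sided), Benjamini-Hochberg over 12892 genes, threshold 0.05. Log2 fold changes carry standard errors. The procedure was tested on simulated data with few changed genes and no shift in scaling between groups. With 68.8% of genes called here, that test does not cover the choice of scaling. The members and lists were chosen with earlier results of these data known. Values in every library are given for all CLK and U2AF genes and, in each other family, the 4 largest called rises and falls with a mean of at least 5 CPM, the 2 most abundant members and a fixed panel. Of the other splicing genes, the 5 largest called rises and falls with that mean and a panel were chosen to be named, mostly by their log2 change alone; Gemin8, Wdr77, Smn1, Clns1a, Coil and Prmt5 were named after their values were seen. Alternatives were RLE and upper-quartile factors, library totals, DESeq2 1.42.0, limma-voom (limma 3.58.1), other filters, a threshold of 0.01, scaling without the 50 most abundant genes, a replicate block and leaving out each library. All 112 members matched GENCODE M21. Exons of 37 tested members overlap a gene on the opposite strand and 16 one on the same strand. Protein sequence features were not analysed here, and single values of 2 genes are not reported here.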

Additional observations from a re-analysis of the deposited data

How the results depend on the processing

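Members called higher numbered 45 to 64 and members called lower 12 to 29 over all alternatives, against 61 and 18 as reported. The extremes of 45 and 29 came from library totals. Under that scaling 24.3% of all genes were higher and 45.7% lower, beside 33.7% and 35.1% as reported. Leaving out 1 library gave 59 to 64 higher and 14 to 21 lower members. Calls over all genes moved too, from the 8871 as reported. They were more without pressure library 3 and fewer without any other single library. Over the 51 named members and all settings, 792 of 815 values kept their direction and side of the threshold, 11 lost the call, 4 gained it and 8 changed sign, and 40 members kept both in every setting. Deviations from the group mean had correlations of 0.129, -0.23 and -0.134 between same-numbered control and pressure libraries. With 3 libraries in each group, these values cannot decide whether same-numbered libraries share an animal or preparation. With a replicate block, 60 members were higher and 16 lower. None of the genes that changed sign had been called. With library totals Clk1 gave -0.099, Clk3 -0.16, Hnrnpu -0.11 and Upf1 -0.0060, and with upper-quartile factors Clk3 gave -0.061 and Hnrnpu -0.00565. Leaving out 1 library at a time gave -0.00533 to 0.097 for Clk3, -0.0740 to 0.037 for Srsf1 and -0.16 to 0.021 for Srpk1, the highest value in each case without pressure library 3. Depth limits members such as Snrpn and Rbm46, which had few reads.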
